A study of Mus musculus with 60 samples.

Results

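The expression of 10 genes of fibroblast growth factor (FGF) signalling was followed in mouse embryonic stem cells that were depleted of POLE4, that carried MCM2-2A, or both, in self-renewing culture and during retinoic acid (RA) differentiation. The genes were given by name, out of 55487 genes in the count tables. They comprise the ligands Fgf4, Fgf8, Fgf15 and Fgf17, the receptors Fgfr1 and Fgfr2, and the Sprouty inhibitors Spry2 and Spry4. The others are the phosphatase gene Dusp6 and the transcription factor gene Etv4. These genes and the other gene lists used below were chosen with earlier results of these data known. Their shares of calls and medians, set beside those of all features, are therefore a description. POLE4, a subunit of DNA polymerase epsilon, passes parental histones to the leading strand at the replication fork, and the MCM2-2A mutant of the helicase subunit MCM2 cannot bind them for transfer to the lagging strand. Every line carried a POLE4-dTAG degron, so the controls carried the tag too, in either the WT or the MCM2-2A background of E14JU stem cells. Cells received DMSO (Ctrl WT and Ctrl MCM2-2A) or 1 µM dTAG (dPOLE4 WT and dPOLE4 MCM2-2A) for 24 h in serum with LIF (T0), and then RA without LIF for 12, 24 or 60 h (T12, T24, T60). A further set of all 4 lines stayed in serum with LIF and was treated for 96 h. There were 3 libraries in each of the 20 groups, described as biological replicates, 60 libraries in all. Each background was 1 clone, so the MCM2-2A mutation and the clone cannot be told apart in any comparison between backgrounds. The degron removes the POLE4 protein, so no transcript in these data checks the depletion.

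FGF ligands bind receptor tyrosine kinases at the cell surface and activate ERK through the RAS, RAF and MEK relay. ERK in turn induces its own inhibitors, among them the Sprouty proteins and the phosphatase DUSP6, and ETS factors such as ETV4, so the transcripts of these genes are widely read as a record of pathway activity. In pluripotent cells FGF4 is the main ligand that the cells make themselves, and its ERK signal prepares them to leave self-renewal and, in the blastocyst, supports primitive endoderm.

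Library totals ran from 10461077 to 46609151 counts in the 48 libraries of the RA series and from 7126100 to 23598266 in the 12 libraries of the 96 h set, which were deposited and normalised as separate tables. Levels below are CPM (counts scaled to a common library total) on library sizes scaled by the TMM method. A difference was called when edgeR's quasi-likelihood test gave a Benjamini-Hochberg adjusted p under 0.01 over all tested features together with a log2 fold change over 0.58 in size. Fgf4, Fgfr1, Fgfr2, the Sprouty genes, Dusp6 and Etv4 rested on at least 18 reads in every library, while Fgf8 (1 to 131 reads), Fgf15 (3 to 418) and Fgf17 (6 to 592) were sparse. The libraries carried the markers of their labelled state. All 8 pluripotency markers stood at 3174 to 3307 CPM when summed over the list in Ctrl WT at T0 and at 153 to 187 CPM at T60. The 6 neural progenitor markers summed to 136 to 164 CPM at T0 and 342 to 364 CPM at T60. The 7 primitive endoderm markers summed to 15.3 to 32 CPM at T0 and 354 to 423 CPM at T60. In bulk RNA, fewer cells of a type and less RNA per cell cannot be told apart, and this holds for each result here.

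Short stretches of sequence are shown for Fgf4 and Fgfr2. Fgf4 lies on chromosome 7 of GRCm38 (chr7:144847367-144865243, plus strand), with Fgf15 31287 bases further on (chr7:144896531-144900953, plus strand). The last exon of Fgf4, exon 3 of 3, holds a composite of a SOX motif and an octamer after the coding sequence, at chr7:144864388-144864417, in a region known as an enhancer bound by SOX2 and OCT4 in stem cells. It is shown because OCT4 (Pou5f1) and Fgf4 were both measured here. Capitals mark the SOX letters CTTTGTN and the octamer letters ATGCNAAT, which stand 3 bases apart. The same arrangement was present on the sense strand of transcripts of 2 of 21877 protein-coding genes (0.0091%). The search used the letters and spacing of this site, so Fgf4 was bound to be among the 2 genes. Sequence outside transcripts was not searched.
Fgf4 composite site: aaaactCTTTGTTtggATGCTAATgggata
The 250 bases before the RefSeq start of Fgf4 (chr7:144861136-144861385, plus strand) had 71.2% GC, and those of Fgfr2 (chr7:130266809-130267058, minus strand) 44.0%, against a median of 52.4% over 32851 such windows. Both windows lie inside the wider GENCODE gene span and outside its exons. They are set side by side because Fgf4 had the largest fall and Fgfr2 the largest rise from T0 to T60 in Ctrl WT. In the Fgf4 window capitals mark the GC box CCGCCC, which is read on the opposite strand as GGGCGG and occurs in 32.7% of all windows on either strand.
Fgf4 promoter: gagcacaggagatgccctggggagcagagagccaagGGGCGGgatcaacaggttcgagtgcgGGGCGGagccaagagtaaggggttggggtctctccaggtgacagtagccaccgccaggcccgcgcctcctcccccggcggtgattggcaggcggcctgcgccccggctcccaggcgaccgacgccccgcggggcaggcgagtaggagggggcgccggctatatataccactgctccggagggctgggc
Fgfr2 promoter: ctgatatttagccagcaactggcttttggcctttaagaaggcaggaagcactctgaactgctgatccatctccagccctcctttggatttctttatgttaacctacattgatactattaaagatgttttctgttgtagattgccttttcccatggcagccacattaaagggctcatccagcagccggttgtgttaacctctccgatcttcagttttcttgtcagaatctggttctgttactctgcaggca
No GC box was present in the Fgfr2 window, nor in those of Spry2 (chr14:105896820-105897069, minus strand, 62.4% GC) and Dusp6 (chr10:99262981-99263230, plus strand, 56.4% GC). The direct-repeat unit AGGTCA of retinoid receptors (14% of all windows), the ETS letters CCGGAA (12%), the octamer ATGCNAAT (2.86%), CACGTG (6.02%) and TGACGT (6.47%), each searched on both strands, matched in none of the 4 windows. A missing match says only that these letters are not in these 250 bases.

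RA differentiation of the control cells came first, to set the course against which the mutants were read. RA was added as LIF was removed, so RA, the loss of LIF and time in culture cannot be told apart in changes from T0. In Ctrl WT all 4 ligands fell between T0 and T60. Fgf4 stood at 157, 178 and 180.3 CPM in the T0 libraries and at 1.40, 1.65 and 2.59 CPM at T60, a 96.1-fold fall (log2 fold change -6.59, SE 0.13, adjusted p = 6.24e-15). The fall was spread over the course, with called steps from T0 to T12 (log2 fold change -0.97), T12 to T24 (-1.50) and T24 to T60 (-4.09). Fgf8, a ligand of gastrulating mesoderm, was far lower to begin with and stood at 5.61, 4.33 and 5.31 CPM at T0 and 0.487, 0.274 and 0.192 CPM at T60 (log2 fold change -3.88, SE 0.31, adjusted p = 1.99e-08). Its relative Fgf17 moved from 22, 23.8 and 21.4 to 0.365, 0.822 and 0.672 CPM (log2 fold change -5.26, SE 0.20, adjusted p = 5.20e-12). Fgf17 had its first step early, at T12 (-1.38), and its largest log2 step after T24 (-3.67). Fgf15, the mouse counterpart of human FGF19 and a ligand of the embryonic brain, held 4.54, 4.33 and 3.74 CPM at T0 and 0.183, 0.822 and 0.288 CPM at T60 (log2 fold change -3.39, SE 0.35, adjusted p = 4.69e-07), and its only called step was the last (-2.73). No ligand had overlapping T0 and T60 libraries. How many of all features lacked such overlap was not counted, here or for the genes and markers below. The T12 call of Fgf8 (log2 fold change -0.78) was lost without replicate 1 or 3 of either group, with the highest adjusted p, 0.0205, without T0 replicate 3. Fgf15 also shares 761 exon bases with the antisense gene Gm26793, and the strand setting of the counting is not given in the sources used here.

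The receptors went the other way. Fgfr1 (chr8:25513654-25575718, plus strand), the main FGF receptor of the epiblast, stood at 110.2, 102 and 103 CPM at T0 and at 232, 194 and 195 CPM at T60 (log2 fold change 0.96, SE 0.07, adjusted p = 1.06e-08). No single step of that rise was called. Fgfr2 (chr7:130162451-133123350, minus strand), the receptor known from primitive endoderm, trophectoderm and epithelia, moved from 34.7, 36.8 and 35.4 to 150.0, 154 and 170.2 CPM, a 4.37-fold rise (log2 fold change 2.13, SE 0.07, adjusted p = 7.23e-13), with its called step after T24 (1.48). Its step from T12 to T24 (0.53) was under the limit on size and passed it without T24 replicate 1 (0.62). All T60 libraries exceeded all T0 libraries for both receptors. The primitive endoderm markers rose beside Fgfr2, with 7 of 7 higher in every T60 library than in any T0 library, and their part in the Fgfr2 rise was not tested. The GENCODE span given for Fgfr2 is wide and overlaps 69 other genes. Fgfr2 shares 314 exon bases on the same strand with Ctbp2, whose level went the opposite way, and Fgfr1 shares 164 exon bases with the antisense gene Gm16159.

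Among the feedback genes the Sprouty pair and Etv4 fell and Dusp6 did not pass the test over the whole span. Spry4 (chr18:38586247-38601415, minus strand) stood at 154, 143 and 153 CPM at T0 and at 2.50, 2.28 and 2.59 CPM at T60, a 61.7-fold fall (log2 fold change -5.95, SE 0.09, adjusted p = 1.21e-15). It passed through 99.5, 96.7 and 97.6 CPM at T12, a called step (-0.61), and 75.2, 79.6 and 84.8 CPM at T24, and the last step was the largest on the log2 scale (-5.00). Spry2 (chr14:105891947-105896819, minus strand), which like Spry4 restrains receptor tyrosine kinase signals, fell less, from 136, 114 and 127 to 19.9, 18.4 and 20.6 CPM (log2 fold change -2.70, SE 0.08, adjusted p = 5.20e-13). Etv4 (chr11:101769742-101785371, minus strand), an ETS factor of the PEA3 family, moved from 116, 108 and 111 to 6.82, 5.57 and 5.85 CPM (log2 fold change -4.20, SE 0.09, adjusted p = 1.04e-14). None of these had overlapping groups. Dusp6 (chr10:99263231-99267489, plus strand), whose product dephosphorylates ERK, took a course of its own. It stood at 79.3, 63.5 and 76.1 CPM at T0, at 114, 102 and 108 CPM at T12, at 131, 139.7 and 152 CPM at T24 and at 74.7, 65.2 and 65.8 CPM at T60. The T24 libraries were the highest without overlap, and the T60 libraries overlapped those at T0 (log2 fold change -0.11, SE 0.08, adjusted p = 0.268). The step from T24 to T60 was called (log2 fold change -1.02, SE 0.07, adjusted p = 9.29e-09), and the step from T0 to T12 had an adjusted p of 2.08e-04 at a log2 fold change of 0.57, just under the limit, and passed it without T0 replicate 1 (0.63), T0 replicate 3 (0.59) or T12 replicate 2 (0.61).

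**Figure D1:**
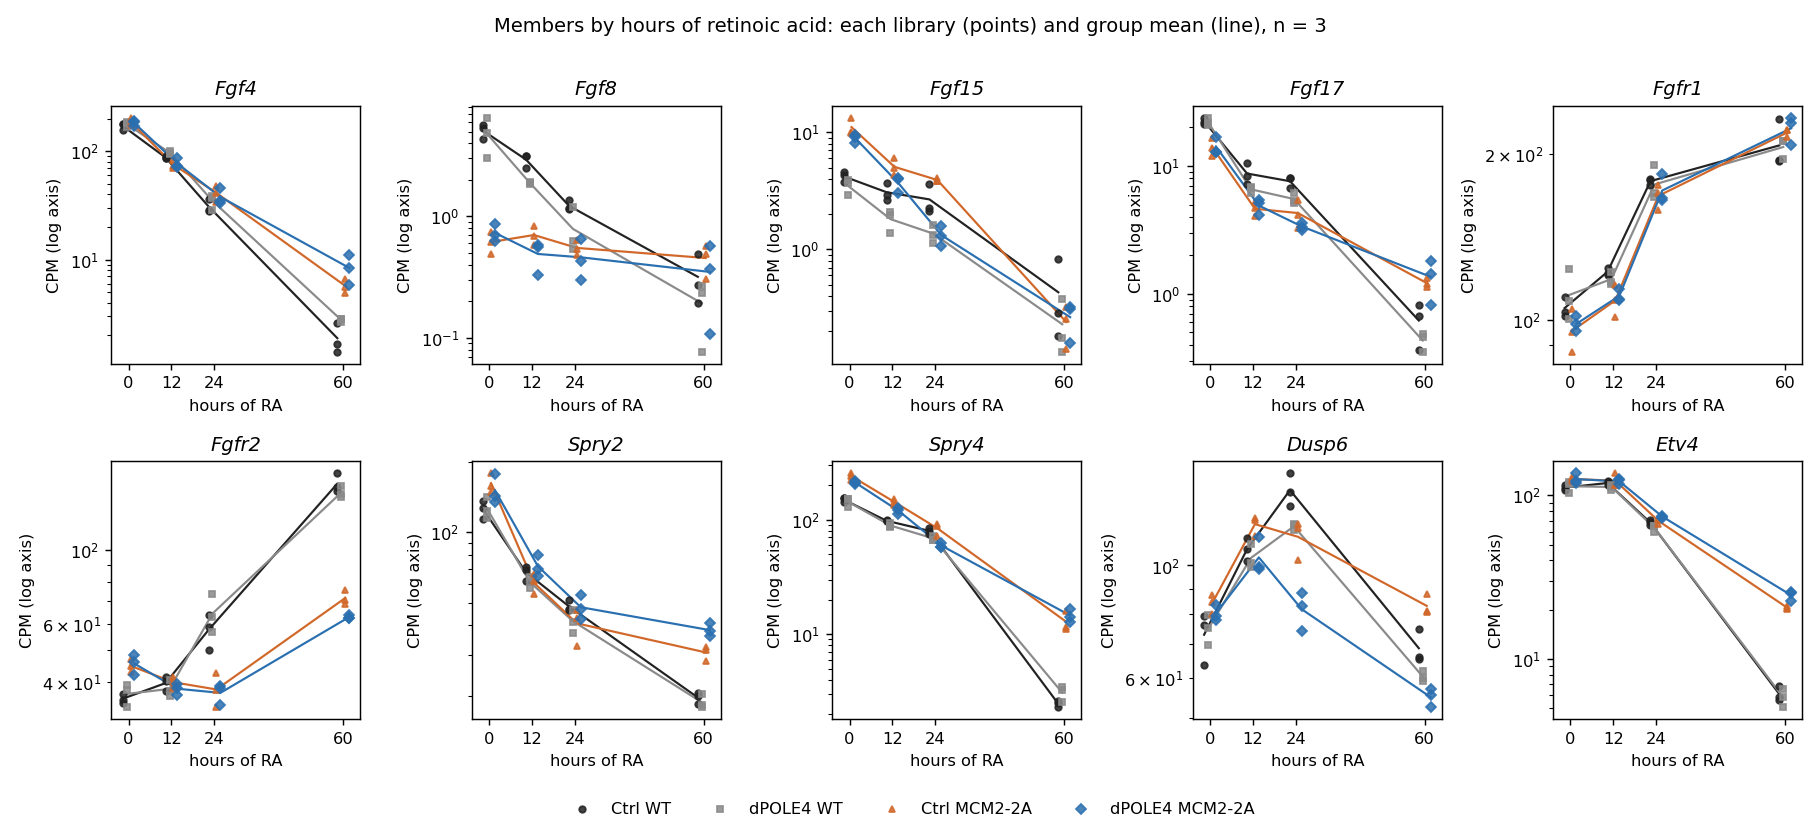
CPM of each of the 10 genes (log axis) in the 4 lines at T0, T12, T24 and T60 of RA treatment, with 1 point per library and lines through the means of 3. In Ctrl WT the ligands, Sprouty genes and Etv4 go down and the receptors up, and at T60 Spry4 is lowest in the WT lines (2.50, 2.28 and 2.59 CPM in Ctrl WT).

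In counts, 5 of the 10 genes were called between T0 and T12, all lower, where 11.3% of all features were called, 7.24% higher and 4.04% lower. Between T12 and T24 there were 3, all lower (6.97% of all features, 3.75% higher and 3.22% lower), and between T24 and T60 there were 8 lower and 1 higher (35.7% of all features, 19.8% higher and 15.9% lower). The medians of the 10 at these steps were -0.53 against 0.0057 over all features, -0.24 against 0.0078 and -2.26 against -0.0061. Over the whole span 7 were lower and 2 higher, with a median log2 fold change of -3.63 against -0.013 over all features, where 50.6% of all features were called, 26.9% higher and 23.7% lower. All 8 pluripotency markers were lower in every T60 library than in any T0 library beside these falls, and their part was not tested. The other 58 genes of the pathway list moved in both directions. Of the 49 that were tested between T0 and T60, 17 rose and 9 fell (53.1% called, against 50.6% of all features), with a median of 0.20. The largest rises were those of Flrt3 (log2 fold change 3.93, SE 0.12, adjusted p = 3.41e-13), a membrane protein that binds FGF receptors, of the co-receptor gene Klb (3.19) and of Phlda1 (3.13). The largest falls were those of Etv5 (log2 fold change -3.92, SE 0.08, adjusted p = 1.09e-14), the close relative of Etv4, of the AP-1 gene Fosl1 (-3.13) and of Ccnd1 (-2.79), which encodes cyclin D1. In the first 12 h 26.5% of 49 tested genes were called, against 11.3% of all features. Of these 7 rose, led by Fgfr4 (1.86) and the ERK phosphatase gene Dusp9 (1.86), and 6 fell, led by the ligands Fgf10 (-1.99) and Fgf5 (-1.85).

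Levels between genes were compared per kilobase of exon. In Ctrl WT at T0 Spry2 led with 60.1 CPM per kb, followed by Fgf4 (53.8), Etv4 (35.9), Spry4 (31.6) and Dusp6 (23.3), and Fgf15 was last (1.37). At T60 the order was led by Dusp6 (21.9 CPM per kb), Fgfr1 (21) and Fgfr2 (15.3), while Etv4 (1.96) stood above Fgf4 (0.588) and Spry4 (0.517). In dPOLE4 MCM2-2A at T60 the per-kilobase order read Fgfr1 (22.5), Spry2 (18.3), Dusp6 (17.5) and Etv4 (7.89), with Fgfr2 (6.08) behind them.

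The next question was whether the mutants carried out the same response. In the MCM2-2A lines the falls of Fgf4, Fgf17, Spry4 and Etv4 stopped short and the rise of Fgfr2 was smaller. Fgf4 at T60 was 1.09% of its own T0 mean in Ctrl WT, 1.55% in dPOLE4 WT, 3.03% in Ctrl MCM2-2A and 4.61% in dPOLE4 MCM2-2A. For Etv4 the shares in that order were 5.46%, 5.10%, 16.3% and 19.5%. Spry4 retained 1.64%, 2.13%, 5.33% and 6.90%. Fgfr2 reached 444% of its T0 mean in Ctrl WT and 404% in dPOLE4 WT, but 159.9% in Ctrl MCM2-2A and 138% in dPOLE4 MCM2-2A. Fgfr1 reached between 186% and 229% in all 4 lines.

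Tested against its own T0, each line still called most of the 10 genes. In dPOLE4 WT 2 rose and 7 fell, where 48.1% of all features were called, 25.6% higher and 22.5% lower. In Ctrl MCM2-2A 2 rose and 6 fell (47.5% of all features, 26.3% higher and 21.2% lower), and Fgf8 was not called. In dPOLE4 MCM2-2A 1 rose and 6 fell (42.2% of all features, 23% higher and 19.3% lower), and Fgfr2 had a log2 fold change of 0.44 (adjusted p = 6.35e-04), under the limit on size. The median log2 fold changes of the 10 genes were -4.18 against -0.011 over all features in dPOLE4 WT, -2.50 against -0.0029 in Ctrl MCM2-2A and -2.20 against -0.032 in dPOLE4 MCM2-2A. Dusp6 in dPOLE4 MCM2-2A had -0.579 (adjusted p = 5.70e-05) and crossed the limit in some fits that left out a library, at -0.586 without T0 replicate 1, -0.584 without T0 replicate 2 and -0.580 without T60 replicate 3.

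The difference between responses was tested with an interaction term over the T0 and T60 libraries of a mutant line and Ctrl WT. All 3 of these tests share the Ctrl WT libraries. For Ctrl MCM2-2A 6 of 10 genes were called, 5 with a higher log2 response and 1 with a lower one, where 9.1% of all features were called, 4.7% higher and 4.4% lower. Fgf4 stood at 204, 186 and 175 CPM at T0 and 6.64, 4.89 and 5.62 CPM at T60 in Ctrl MCM2-2A, so that its log2 response was higher by 1.51 (SE 0.22, adjusted p = 6.77e-05). The Spry4 libraries of this line held 256, 224 and 242 CPM at T0 and 15.8, 11 and 11.6 CPM at T60 (difference 1.69, SE 0.19, adjusted p = 5.16e-06). Both genes thus ended above the range of Ctrl WT at T60, where no library exceeded 2.59 CPM for either. Etv4 held 129.6, 123 and 125 CPM at T0 and 20.6, 20.03 and 21 CPM at T60 (difference 1.56, SE 0.10, adjusted p = 8.14e-09). Fgfr2 held 46.8, 44.7 and 42.8 CPM at T0 and 68.8, 70.5 and 75.5 CPM at T60, and its response was lower by a log2 difference of -1.47 (SE 0.09, adjusted p = 2.50e-09). Its T0 libraries lay above and its T60 libraries below those of Ctrl WT.

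Fgf17 (difference 1.73, adjusted p = 0.00114) lost its call without T60 replicate 1 of Ctrl WT (1.41, adjusted p = 0.0111), the library with the fewest Fgf17 reads. Fgf8 had the largest difference, 3.52 (SE 0.50, adjusted p = 6.27e-05), but in Ctrl MCM2-2A it was already at 0.744, 0.612 and 0.488 CPM at T0 and at 0.569, 0.485 and 0.307 CPM at T60. These groups overlapped, and it is the fall of Fgf8 in Ctrl WT that this difference is measured against. Fgf15 pointed the other way from the other ligands (-2.05, adjusted p = 0.0201) and was not called, although DESeq2 (-2.07, adjusted p = 0.00276), an unfiltered fit, a fit over all groups and a fit without T60 replicate 1 of Ctrl WT (-2.51) called it.

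In dPOLE4 MCM2-2A 7 of 10 genes were called, 6 with a higher response and 1 with a lower one, against 10.9% of all features, 4.98% higher and 5.95% lower. The differences were 2.12 for Fgf4, 1.85 for Fgf17, 2.07 for Spry4, 1.82 for Etv4 and -1.68 for Fgfr2, with adjusted p between 6.64e-09 (Fgfr2) and 0.00286 (Fgf17). At T60 its libraries held 10.9, 8.35 and 5.87 CPM of Fgf4 and 16.6, 14.2 and 12.9 CPM of Spry4. Spry2 was called as well (0.68, adjusted p = 0.00302) but lost the call without T0 replicate 1 of Ctrl WT (0.62, adjusted p = 0.01004). Without T60 replicate 1 of Ctrl WT the Fgf17 difference had an adjusted p of 0.0240, and without T60 replicate 1 of dPOLE4 MCM2-2A that of Fgf8 (2.88, adjusted p = 0.00249) had 0.0207. Fgf8 in this line was already at 0.702, 0.862 and 0.631 CPM at T0, against 0.573, 0.106 and 0.367 CPM at T60. Its difference, too, is measured against the fall of Fgf8 in Ctrl WT. Dusp6 (-0.47, adjusted p = 0.0102) was not called. In dPOLE4 WT edgeR called 0 of 10 genes, as did DESeq2, where 0.0104% of all features were called. Fgf4 alone had an unadjusted p under 0.05 there (0.56, 95% interval 0.12 to 1.00, adjusted p = 0.299). Over all features 2518 of 19306 had such a p in that edgeR test.

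Medians over the 10 genes were 0.89 against -0.013 over all features for Ctrl MCM2-2A, 1.25 against -0.0047 for dPOLE4 MCM2-2A and -0.12 against -0.012 for dPOLE4 WT. Of the other pathway genes, 7 had a higher and 3 a lower response in Ctrl MCM2-2A among 51 tested (19.6% called, against 9.1% of all features), led by Fosl1 (3.25), Ccnd1 (1.26) and the ERK phosphatase gene Dusp5 (1.22) upward and by Fgfr4 (-1.94), Fgf11 (-1.78) and Phlda1 (-1.67) downward. Markers of other cell states moved with these results. At T60 the pluripotency list summed to 153 to 187 CPM in Ctrl WT, 348 to 466 CPM in Ctrl MCM2-2A and 467 to 620.0 CPM in dPOLE4 MCM2-2A, with 7 of 8 markers higher in every Ctrl MCM2-2A library than in any of Ctrl WT. Pou5f1 was at 30.4 ± 6.72, 98.9 ± 12.8 and 154 ± 24.9 CPM (SD, n = 3) in the same order. The neural progenitor list went the opposite way, with 342 to 364, 219 to 252 and 164 to 177 CPM. Primitive endoderm markers summed to 354 to 423, 587 to 657 and 454 to 504 CPM. Fibroblast markers at T60 were 326 to 454, 138 to 161 and 59.3 to 73.6 CPM, with Lum at a mean of 0.289 and 0.198 CPM in the Ctrl lines and at 0 in dPOLE4 MCM2-2A, and trophectoderm markers were 79.3 to 95, 43.2 to 46.6 and 49.6 to 56.4 CPM. Between the Ctrl lines at T60, 2 of 5 fibroblast markers were lower and 1, Thy1, higher in every MCM2-2A library, 1 of 4 trophectoderm markers was lower and 1 higher, 6 of 6 neural progenitor markers were lower and 4 of 7 primitive endoderm markers higher. The part of these cell states in the differences of the 10 genes was not tested.

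**Figure D2:**
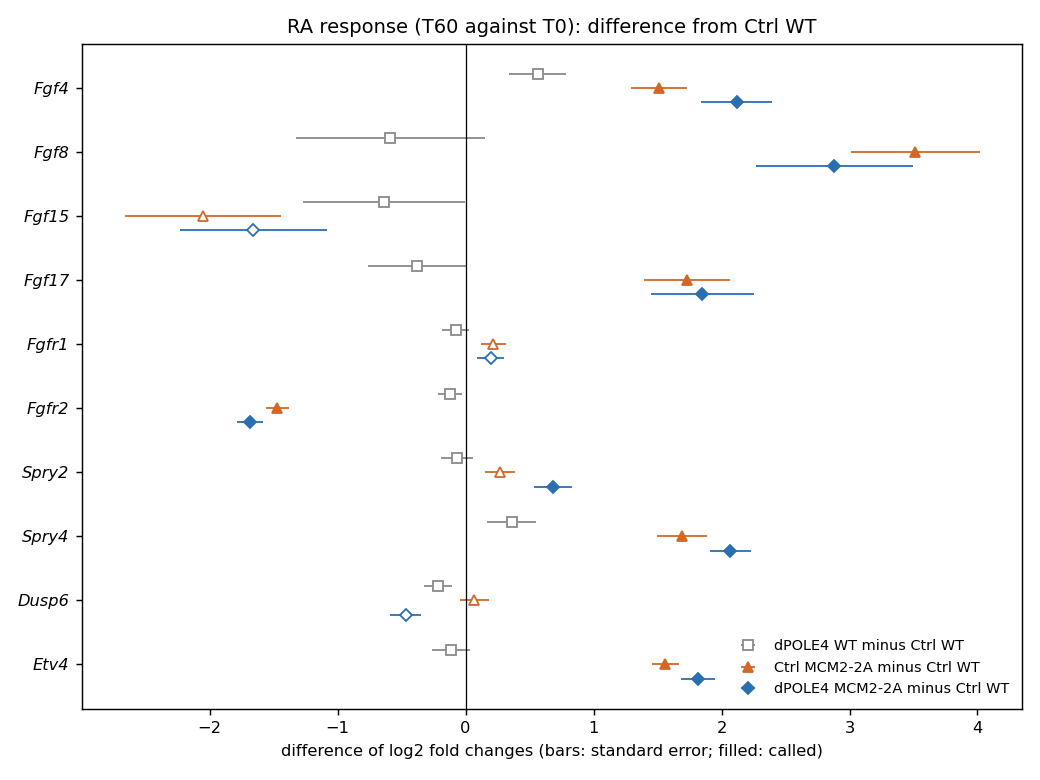
Difference of the log2 RA response (T60 against T0) from that of Ctrl WT for each gene in the 3 mutant lines, with bars of 1 standard error and filled symbols for called differences. Fgf4 (1.51 and 2.12), Spry4 and Etv4 lie above 0 and Fgfr2 below it in both MCM2-2A lines, and the dPOLE4 WT estimates carry no call.

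Comparing the Ctrl lines directly showed how far the backgrounds already differed before RA. At T0 4 of 10 genes were called, 2 higher and 2 lower in MCM2-2A, where 18.9% of all features were called, 9.83% higher and 9.06% lower. Fgf8 was the most different, at 0.744, 0.612 and 0.488 CPM against 5.61, 4.33 and 5.31 CPM in WT, or 8.63-fold lower (log2 fold change -3.11, SE 0.23, adjusted p = 9.43e-07). Of the 5 mesoderm markers 3 were lower in every MCM2-2A library (T, Mixl1 and Kdr), while Eomes and Mesp1 overlapped. The list summed to 10.9 to 13.2 CPM in MCM2-2A and 38.6 to 57.2 CPM in WT, and T (brachyury), the defining gene of nascent mesoderm and the bulk of that sum in WT, stood at 1.30 ± 0.609 against 36.5 ± 9.20 CPM (SD, n = 3). Their part in the Fgf8 level was not tested. Fgf15 was higher in MCM2-2A, at 13.3, 9.79 and 10.1 CPM against 4.54, 4.33 and 3.74 CPM (log2 fold change 1.38, SE 0.15, adjusted p = 1.36e-05), although its neighbour Fgf4 had overlapping libraries, 204, 186 and 175 against 157, 178 and 180.3 CPM. Spry4 was higher, at 256, 224 and 242 against 154, 143 and 153 CPM (log2 fold change 0.66, SE 0.06, adjusted p = 2.35e-06). Fgf17 was lower (log2 fold change -0.70, SE 0.11, adjusted p = 2.99e-04) and lost the call without T0 replicate 3 of Ctrl MCM2-2A (-0.54). The median log2 fold change over the tested members and over all features was 0.18 against -0.018 at T0, -0.06 against -0.00094 at T12 and -0.14 against -0.002 at T24.

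Early in RA treatment Fgf8 and Fgf17 were again the lower genes in MCM2-2A. At T12 Fgf8 (-2.08) and Fgf17 (-0.90) were lower and Fgf15 higher (0.75, adjusted p = 0.00969), 3 of 10 against 14.5% of all features, 6.93% higher and 7.62% lower. The Fgf15 call at T12 was lost without MCM2-2A replicate 1 or 2 or WT replicate 1 or 3, to an adjusted p of at most 0.0575, and that of Fgf17 without MCM2-2A replicate 1 (0.0153). Spry4 at T12 and Fgf15 at T24 had no call and gained one without MCM2-2A replicate 2 (0.59) and WT replicate 1 (0.85) respectively. At T24 Fgf8 (-1.07, adjusted p = 0.00678) and Fgf17 (-0.76) were lower, 2 of 10 against 17.3% of all features, 9.71% higher and 7.6% lower. The T24 call of Fgf8 did not survive leaving out any of the 6 libraries, with adjusted p from 0.0157 to 0.0253, nor DESeq2 (0.0385). Fgfr2 at T24 had a log2 fold change of -0.56 (adjusted p = 6.56e-05), just short of the limit on size, and passed it at -0.66 without MCM2-2A replicate 2 and -0.65 without WT replicate 1.

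At T60 Spry4, Etv4 and Fgf4 led the differences. Of the 8 genes with enough reads to test, 4 were higher and 1 lower in Ctrl MCM2-2A than in Ctrl WT, against 16.9% of all features, 8.97% higher and 7.93% lower, and their median was 0.85 against 0.01 over all features. Spry4 was 5.22-fold higher (log2 fold change 2.38, SE 0.19, adjusted p = 1.46e-07), Etv4 3.36-fold (log2 fold change 1.75, SE 0.11, adjusted p = 2.05e-08) and Fgf4 3.14-fold (log2 fold change 1.65, SE 0.23, adjusted p = 3.91e-05). Spry2 held 32.4, 28.2 and 31.3 CPM against 19.9, 18.4 and 20.6 CPM (log2 fold change 0.65, SE 0.09, adjusted p = 2.78e-05). Fgfr2 was 2.19-fold lower (log2 fold change -1.13, SE 0.07, adjusted p = 1.02e-08). No called gene had overlapping groups, and each call held when any library was left out. Fgf17 (1.05, adjusted p = 0.0248) was not called, and Fgf8 and Fgf15 had too few reads. Among the other pathway genes 6 were higher and 2 lower of 51 tested (15.7% called, against 16.9% of all features), led by Fosl1 (2.88), Ccnd1 (1.25) and Spred3 (1.11) upward and the adaptor gene Grb2 (-1.05) downward. A chromosome-wide offset bears on Etv4: the median log2 difference between the Ctrl lines over genes of chromosome 11 was -0.548 at T60 and between -0.476 and -0.510 at the other times, while Etv4 was higher at T60. Chromosome 14, which carries Fgf17 and Spry2, had medians of 0.209 to 0.349, while genes within 5 Mb of Spry2 had medians of -0.123 to 0.165 and those within 5 Mb of Fgf17 of 0.179 to 0.450. Such offsets were looked up for the members only, and not for other pathway genes such as Grb2.

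**Figure D3:**
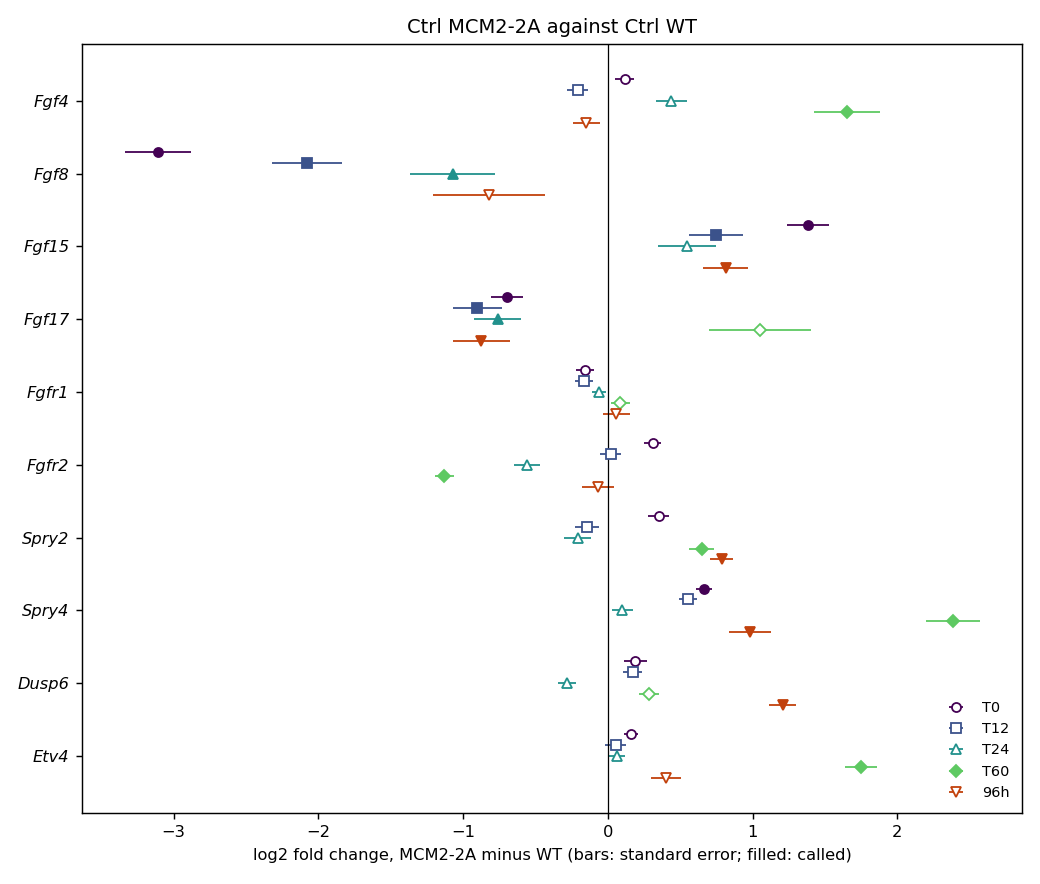
Log2 fold change of Ctrl MCM2-2A against Ctrl WT for each gene at T0, T12, T24, T60 and in the 96 h set, with bars of 1 standard error and filled symbols for calls. Fgf8 starts at -3.11 and moves towards 0, while Fgf4 (1.65), Spry4 (2.38) and Etv4 (1.75) stand apart from 0 at T60.

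The cells kept in serum with LIF for 96 h gave a separate reading of the undifferentiated state. Here 4 of 10 genes were higher and 1 lower in Ctrl MCM2-2A, against 15.7% of all features, 9.23% higher and 6.47% lower. The median over the 10 genes was 0.23 against -0.0054 over all features. Dusp6 was at 106, 111 and 122 CPM against 54.4, 48.3 and 45.8 CPM, or 2.31-fold higher (log2 fold change 1.21, SE 0.09, adjusted p = 1.93e-06). Spry4 stood at 174, 257 and 246 CPM against 92.6, 129 and 125 CPM (log2 fold change 0.98, SE 0.14, adjusted p = 1.84e-04). Spry2 stood at 182, 176 and 161 CPM against 104, 103 and 97.4 CPM (log2 fold change 0.79, SE 0.08, adjusted p = 1.15e-05). All MCM2-2A libraries of these feedback inhibitors lay above all WT libraries. Fgf15 was higher (0.81, adjusted p = 0.00140) and Fgf17 lower (-0.87, adjusted p = 0.00383). Without MCM2-2A replicate 3 the adjusted p was 0.0105 for Fgf15 and 0.0134 for Fgf17, and without WT replicates 2 and 3 in turn that of Fgf17 was 0.0189 and 0.0203. Etv4 had an adjusted p of 0.00743 at a log2 fold change of 0.40, under the limit on size. Fgf8 was not called here, at 0.694, 0.622 and 0.681 CPM in Ctrl MCM2-2A against 1.80, 0.946 and 0.821 CPM in Ctrl WT. The mesoderm list summed to 19.3 to 20.4 CPM in Ctrl MCM2-2A and 15.2 to 23.1 CPM in Ctrl WT. Of its 5 markers 2 were higher and 1 lower in every MCM2-2A library. At T0, in the other table, Dusp6 was not called, and the difference between the 2 sets was not tested because they were normalised apart. Of the other pathway genes 10 were higher and 1 lower of 50 tested at 96 h (22% called, against 15.7% of all features), led by Fgf11 (1.98), Phlda1 (1.94) and Fgfr4 (1.82), and Grb2 was the lower one (-0.78). Primitive endoderm markers were higher in 6 of 7 cases in MCM2-2A at 96 h, at a sum of 50.4 to 61.9 against 16.8 to 21 CPM, and their part was not tested.

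**Figure D4:**
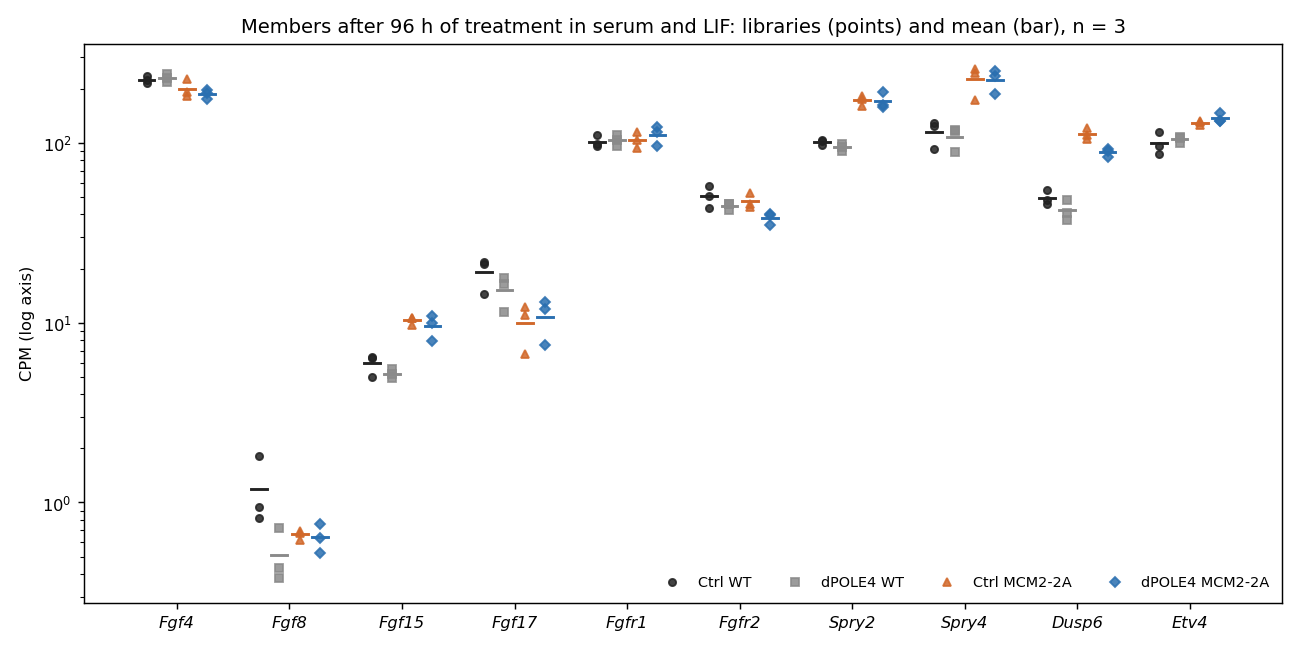
CPM of each gene (log axis) in the 4 lines after 96 h in serum with LIF, with 1 point per library and a bar at the mean of 3. Dusp6, Spry2 and Spry4 are higher in the MCM2-2A lines, with Dusp6 at 106, 111 and 122 CPM in Ctrl MCM2-2A against 54.4, 48.3 and 45.8 CPM in Ctrl WT.

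Depletion of POLE4 in the WT background left the 10 genes without a call at every time. At T0 edgeR called 0 of 10, with 0 at an unadjusted p under 0.05, and 0% of all features were called. At T12 and T24 it again called 0 of 10, beside 0% of all features at either time, with 5 genes each time at an unadjusted p under 0.05. At T60 it called 0 of 7 tested (0.193% of all features) with 2 under 0.05, and at 96 h 0 of 10 (0% of all features) with 1 under 0.05. Features at an unadjusted p under 0.05 numbered 2069 of 17792 at T0, 1150 of 17914 at T12 and 1451 of 19093 at T24. At T60 they numbered 2446 of 17116 and at 96 h 2164 of 17580. DESeq2 called none of the 10 in any of these comparisons. The median log2 fold change of the tested members was lowest at T24 (-0.21, against -0.0021 over all features). The ligands had the largest estimates. Fgf15 at T24 stood at 1.33, 1.61 and 1.14 CPM in dPOLE4 WT against 3.61, 2.15 and 2.26 CPM in Ctrl WT (log2 fold change -0.96, SE 0.25, adjusted p = 0.289), and an unfiltered fit called it (adjusted p = 0.00714). Fgf8 at T12 had -0.65 (adjusted p = 0.602), and Fgf4 at T60 0.61 (adjusted p = 0.261). Fgf8 at 96 h stood at 0.383, 0.721 and 0.430 CPM against 1.80, 0.946 and 0.821 CPM (log2 fold change -1.16, SE 0.40, adjusted p = 0.273). With the replicate number as a block, which paired the 96 h libraries, Fgf8 had an adjusted p of 0.0494 and remained uncalled, while the block raised the calls over all features from 0 to 79 higher and 63 lower.

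In the MCM2-2A background POLE4 depletion called 2 of the 10 genes, each at 1 time. At T0 and T12 edgeR and DESeq2 called 0 of 10, where 0.0715% and 0.404% of all features were called by edgeR. An unadjusted edgeR p under 0.05 was held by 2 and 4 genes, beside 2457 of 18171 and 3179 of 18077 features. At T24 Fgf15 was lower, at 1.07, 1.31 and 1.59 CPM against 3.80, 3.85 and 4.09 CPM without overlap (log2 fold change -1.53, SE 0.21, adjusted p = 6.36e-04), 1 of 10 against 1.02% of all features, 0.515% higher and 0.504% lower. Dusp6 (74.3, 83 and 88.4 against 103, 119 and 121 CPM, log2 fold change -0.47, adjusted p = 0.00319) and Spry4 (-0.49, adjusted p = 0.00310) passed on p and stayed under the limit on size, which Spry4 crossed without Ctrl MCM2-2A replicate 1 (-0.59). At T60 Dusp6 was lower, at 56.9, 52.3 and 55.4 CPM against 87.7, 81.1 and 80.8 CPM without overlap (log2 fold change -0.60, SE 0.07, adjusted p = 7.37e-04), 1 of 8 tested against 2.25% of all features, 1.07% higher and 1.19% lower. Its estimate sat at the limit and slipped under it without Ctrl MCM2-2A replicate 1 (-0.56) or dPOLE4 MCM2-2A replicate 2 (-0.57). Fgf4 at T60 (0.56, adjusted p = 0.126) was called only without dPOLE4 MCM2-2A replicate 3 (0.77). Spry2 had 0.32 (adjusted p = 0.0420). At 96 h 0 of 10 were called by either tool (0.304% of all features by edgeR). Dusp6 (-0.35, adjusted p = 0.0838) and Fgfr2 (-0.32) had an unadjusted p under 0.05, as had 2004 of 17421 features. The replicate block, which paired these libraries, raised the calls over all features from 34 higher and 19 lower to 218 higher and 89 lower. No member was called under it. The median log2 fold change of the tested members was -0.24 against 0.003 over all features at T24 and 0.17 against 0.0039 at T60. The other pathway genes added Etv1, another PEA3 family member, which fell at T24 (-0.86) and T60 (-0.79), and Spred3 at T24 (-0.69), of 51 tested at T24 (3.92% called, against 1.02% of all features) and 52 at T60 (1.92%, against 2.25%). Beside the T60 results, 7 of 7 primitive endoderm markers were lower in every dPOLE4 MCM2-2A library than in any of Ctrl MCM2-2A and 5 of 8 pluripotency markers higher. In the same libraries 5 of 5 fibroblast and 4 of 6 neural progenitor markers were lower, 2 of 4 trophectoderm markers were higher, and 1 of 5 mesoderm markers was higher and 1 lower. The part of these markers was not tested.

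Whether POLE4 depletion acted differently in the backgrounds was tested with an interaction term at each time, and edgeR and DESeq2 called 0 of the tested members at all 5 times. Over all features the calls amounted to 0.00526% at T0, 0.0159% at T12, 0.0351% at T24, 0.1% at T60 and 0% at 96 h. The numbers of members at an unadjusted p under 0.05 were 0, 2, 4, 3 and 0 in that order. Over all features they were 1024 of 19007, 1399 of 18911, 1759 of 19961, 1922 of 18982 and 686 of 18555. Dusp6 at T60 came nearest, with a difference of -0.41 (95% interval -0.60 to -0.23, adjusted p = 0.0539). The calls of Fgf15 and Dusp6 in the MCM2-2A background are therefore not shown to be particular to it.

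**Figure D5:**
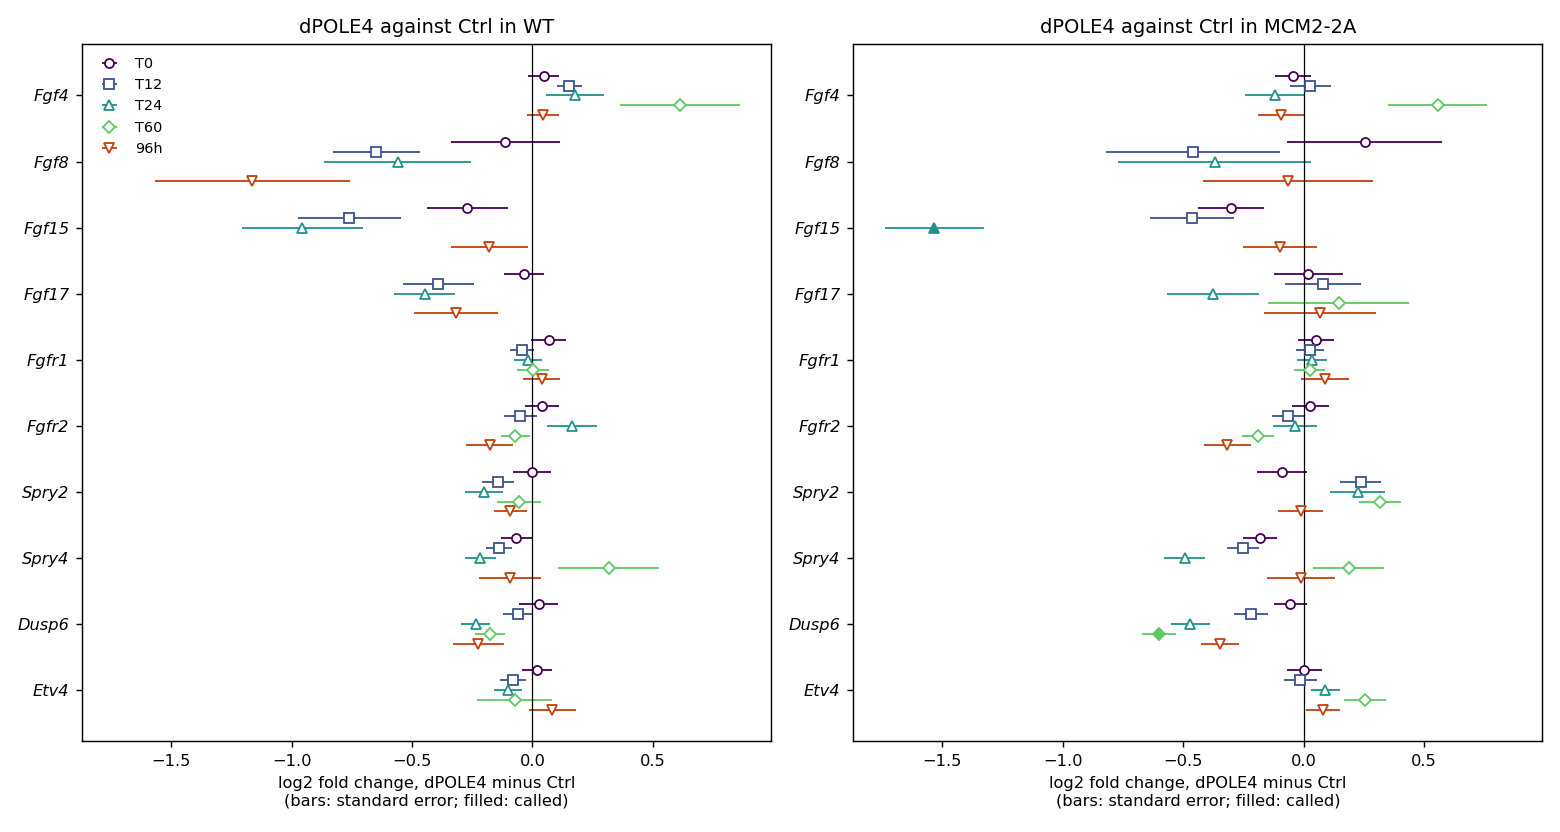
Log2 fold change of dPOLE4 against Ctrl for each gene at each time in the WT and MCM2-2A backgrounds, with bars of 1 standard error and filled symbols for calls. Called are Fgf15 at T24 (-1.53) and Dusp6 at T60 (-0.60), both in MCM2-2A.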

How the data were processed

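Total RNA depleted of ribosomal RNA was sequenced from 60 libraries, 3 in each of 20 groups. Per the study's methods and the labels, the authors trimmed reads with cutadapt 4.2, aligned them to mm10 with STAR, kept reads with several matches, and counted genes (GENCODE M25) and repeats with TEcount. They deposited raw counts in a table for the RA series and another for the 96 h set, which were fitted separately. The strand setting of the counting is not given in the sources used here.

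From these counts, edgeR 4.0.16 (R 4.3.3) fitted a quasi-likelihood model to the libraries of each of 30 comparisons, after filterByExpr (minimum count 10, minimum total 15) and TMM scaling, with Benjamini-Hochberg adjustment over all tested genes and repeats. Calls required an adjusted p under 0.01 and a log2 fold change over 0.58 in size. SE is the log2 fold change divided by the root of F, and 95% intervals take a normal error. The scripts were tested on simulated data. Alternatives were DESeq2 1.42.0, its size factors, no filter, a replicate block, all groups in the fit and leaving out each library. Library totals set the precision: members with few reads have wide errors. Replicate numbers were taken to pair libraries where same-numbered deviations correlated over 0.1 in every pair, which held in the 96 h set for dPOLE4 against Ctrl in WT (lowest 0.167) and MCM2-2A (0.122) and for MCM2-2A against WT (0.108).

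All 10 members were named in the main comparisons. From a list of 58 other pathway genes, the called genes with the largest changes were named, at most 3 in each direction. The members, this list and the marker lists were chosen with earlier results of these data known. Coordinates are GENCODE annotation of GRCm38. Promoter windows come from a set of 32851 windows before RefSeq starts (GRCm38.p6), in which the promoter motifs were searched. That set held a window for 4 of the 10 members and none for Fgf8, Fgf15, Fgf17, Fgfr1, Spry4 and Etv4.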

Additional observations from a re-analysis of the deposited data

Results flagged for a closer look

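For 13 results the RA response (T60 against T0) of a mutant line differed from that of Ctrl WT by the interaction term. In Ctrl MCM2-2A the log2 difference was 1.51 for Fgf4, 3.52 for Fgf8, 1.73 for Fgf17, 1.69 for Spry4, 1.56 for Etv4 and -1.47 for Fgfr2. In dPOLE4 MCM2-2A it was 2.12 for Fgf4, 2.88 for Fgf8, 1.85 for Fgf17, 0.68 for Spry2, 2.07 for Spry4, 1.82 for Etv4 and -1.68 for Fgfr2. Fgf8 was already sparse at T0 in both MCM2-2A lines, so its differences are measured against its fall in Ctrl WT. The responses of the MCM2-2A lines with and without POLE4 were not tested against each other.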

How the results depend on the processing

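Sparse reads limit Fgf8, Fgf15 and Fgf17, and 3 libraries a group limit every call. No direction reversed. With DESeq2, DESeq2 size factors, no filter, the replicate block and all groups in the fit, the number of members called stayed within 1.5 times its value in 29 or 30 of 30 comparisons. The exceptions were dPOLE4 against Ctrl WT at T24, where the fit with no filter called 1 in place of 0, and MCM2-2A against WT at T24, where DESeq2 called 1 and the replicate block 1 in place of 2. Under the block, which did not pair those libraries, Fgf15 in MCM2-2A against WT at T12 (0.74, adjusted p = 0.0243) and Fgf8 at T24 (-1.08, adjusted p = 0.0110) lost their calls, and no call of a member changed in the paired 96 h comparisons. Leaving out each library in turn gave 1 to 2 calls for dPOLE4 against Ctrl MCM2-2A at T24 (1 with all), 0 to 2 at T60 (1 with all), and for MCM2-2A against WT 1 to 3 at T12 (3 with all), 1 to 3 at T24 (2 with all) and 3 to 5 at 96 h (5 with all). Pearson and Spearman correlation gave different sets of the 3 most similar genes for all 10 members. The cause of these changes was not tested, apart from the smaller number of libraries when 1 is left out.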

Other observations

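Genes outside the 10 whose group means ran most like a member's over the 16 groups of the RA series were listed by Pearson correlation of log2 CPM among 13390 genes, as a description, since all 16 points share the RA course. For Spry4 they were Ints13 (0.994), Pou5f1 (0.993) and Sap30 (0.992), and for Etv4 Rpp25 (0.994), Pou5f1 (0.992) and Mylpf (0.991), so the OCT4 gene stood in both lists. By Spearman correlation Pou5f1 ranked 24 for Spry4 and 199 for Etv4. For Fgf4 they were Gm46332 (0.994), Rasgrp2 (0.993) and Aoah (0.993). For Fgf8 the first was T (0.973), the mesoderm gene, followed by Adi1 (0.956) and Eif2b5 (0.953). For Fgf15 the first was Otx2 (0.977), a gene of the primed epiblast and forebrain, followed by Cmss1 (0.975) and Syce2 (0.973). Fgf17 ran with Eif1a (0.989), Sned1 (0.985) and Gm43803 (0.982), and Spry2 with Eed (0.987), Zfp296 (0.986) and Ppm1a (0.984). Among the receptors, Fgfr1 ran with Ubash3b (0.982), D5Ertd579e (0.981) and Kidins220 (0.980), and Fgfr2 with Meox1 (0.965), Cenpb (0.961) and Mir675 (0.955). Dusp6 had the least similar companions, Aoc3 (0.925), Tmem28 (0.912) and Braf (0.909).

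Neighbouring levels often overlapped. Fgf8 had its highest mean in Ctrl WT at T0 (5.09 ± 0.669 CPM, SD, n = 3) and its lowest in dPOLE4 WT at T60 (0.192 ± 0.102), and 2 of the 15 steps in the order of the RA groups were free of overlap between neighbours. Spry4, from 240.3 ± 15.9 CPM in Ctrl MCM2-2A at T0 to 2.46 ± 0.157 CPM in Ctrl WT at T60, had 9 such steps, the most of the 10 genes. Dusp6 ran from 141 ± 10.7 CPM in Ctrl WT at T24 to 54.9 ± 2.31 CPM in dPOLE4 MCM2-2A at T60. Of the other pathway genes 5 were higher and 4 lower in MCM2-2A than in WT at T0, of 49 tested, a share of 18.4% against 18.9% of all features. The higher ones were led by Fgfr4 (1.92), Fgf11 (1.74) and Dusp9 (1.29), and the lower ones by the ERK phosphatase genes Dusp4 (-0.99) and Dusp5 (-0.98) and by Fgf5 (-0.89).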
